A study of Saccharomyces cerevisiae with 7 samples.

Results

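Ribosome biogenesis genes encode the proteins that turn the ribosomal RNA precursor into the small and the large ribosomal subunit. A list of 57 of them was followed here in yeast, chosen by gene name and role, and all 57 had measurements, out of 5781 open reading frames (ORFs) measured. Of the 57, 30 act on the small subunit, 20 on the large subunit, and 7 on both or on neither in particular. Each gene was described by the occupancy of RNA polymerase II (RNAPII) over its ORF and in the 300 bp before its start codon.

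The data came from chromatin immunoprecipitation followed by sequencing (ChIP-seq) of RNAPII in *Saccharomyces cerevisiae*, with the 8WG16 antibody against the repeated tail of the largest RNAPII subunit. The 3 genotypes were WT (wild-type), *rtt109Δ*, deleted for the enzyme that acetylates histone H3 lysine 56, and *rrp6Δ*, without Rrp6, an exonuclease that works with the nuclear exosome. The input DNA came from the W303 strain. All 3 were asynchronous cultures in log phase in rich medium with glucose, crosslinked with formaldehyde and fragmented with micrococcal nuclease. There were 2 immunoprecipitated (IP) libraries per genotype and 1 input library for all, 7 samples in total, and the deposited values give 1 track per genotype with the replicates already combined. No replicate error could therefore be computed, no test between genotypes was possible, and every difference below is a difference between 2 single tracks. Both mutants were compared with the same WT track and all tracks share the input, so the 2 comparisons are not independent of each other.

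Ribosome biogenesis starts in the nucleolus, where RNA polymerase I makes the long precursor and the assembling proteins bind it while it is being made. On the small-subunit side the UtpA and UtpB complexes bind first and the U3 snoRNP, a small nucleolar RNA with its proteins, pairs with the precursor, whereas a separate series of factors folds and trims the large-subunit part. In growing yeast these genes are transcribed by RNAPII as a co-regulated group that responds to nutrients, and Rrp6 itself trims ribosomal and small nucleolar RNAs.

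The tracks hold the IP/input ratio of 100 bp windows spaced 50 bp apart, and an ORF's value averages the windows whose centre lies in it. Every track has a median window of 1, so these ratios cannot show a genome-wide shift, and the read depth is unknown. The *rtt109Δ* track was the narrowest, with an SD over windows of 0.661, against 0.897 for WT and 0.904 for *rrp6Δ*. Each deleted gene was near 0 only in its own strain, with RTT109 at 0.0178 in *rtt109Δ* and 1.36 in WT, and RRP6 at 0.118 in *rrp6Δ* and 1.01 in WT. Chromosome IX was not analysed here, and none of the 57 genes overlaps another ORF.

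In WT, the RNAPII IP/input ratio over ribosome biogenesis genes was about that of the median ORF of the genome. Their median ratio was 0.977, with an interquartile range of 0.895 to 1.15, and the median of all ORFs was 0.974, with an interquartile range of 0.797 to 1.17. In the 4 bins set by the quartiles of all ORFs, from low to high, there were 9, 18, 16 and 14 of the 57 genes. The whole range ran from 0.534 to 1.71. These are ratios from nuclease-digested chromatin and were not set against a measure of transcription. The genes were longer than most, with a median of 1722 bp against 1206 bp for all ORFs.

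UTP20, which encodes one of the largest proteins of the small-subunit processome, was the highest in WT. It stood at 1.71 in WT and at 1.73 in both mutants, so it hardly differed between tracks. UTP8, a subunit of UtpA, came next with 1.43 in WT, 1.35 in *rrp6Δ* and 1.27 in *rtt109Δ*. NOC3, a partner of Noc2 in large-subunit precursors, stood at 1.43 in WT, 1.296 in *rrp6Δ* and 1.33 in *rtt109Δ*. Both were lower in each mutant than in WT, by less than 1.3-fold.

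At the other end, NOP6, a small-subunit factor that binds RNA, was the lowest with 0.534 in WT, 0.627 in *rrp6Δ* and 0.598 in *rtt109Δ*. NSR1, the yeast nucleolin, had 0.597 in WT, 0.493 in *rrp6Δ* and 0.719 in *rtt109Δ*. MAK16, a factor of early large-subunit precursors, had 0.605 in WT, 0.566 in *rrp6Δ* and 0.927 in *rtt109Δ*. NOP6 was the lowest of these 3 genes in WT and in *rtt109Δ* and the highest of them in *rrp6Δ*, where NSR1 was the lowest.

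**Figure D1:**
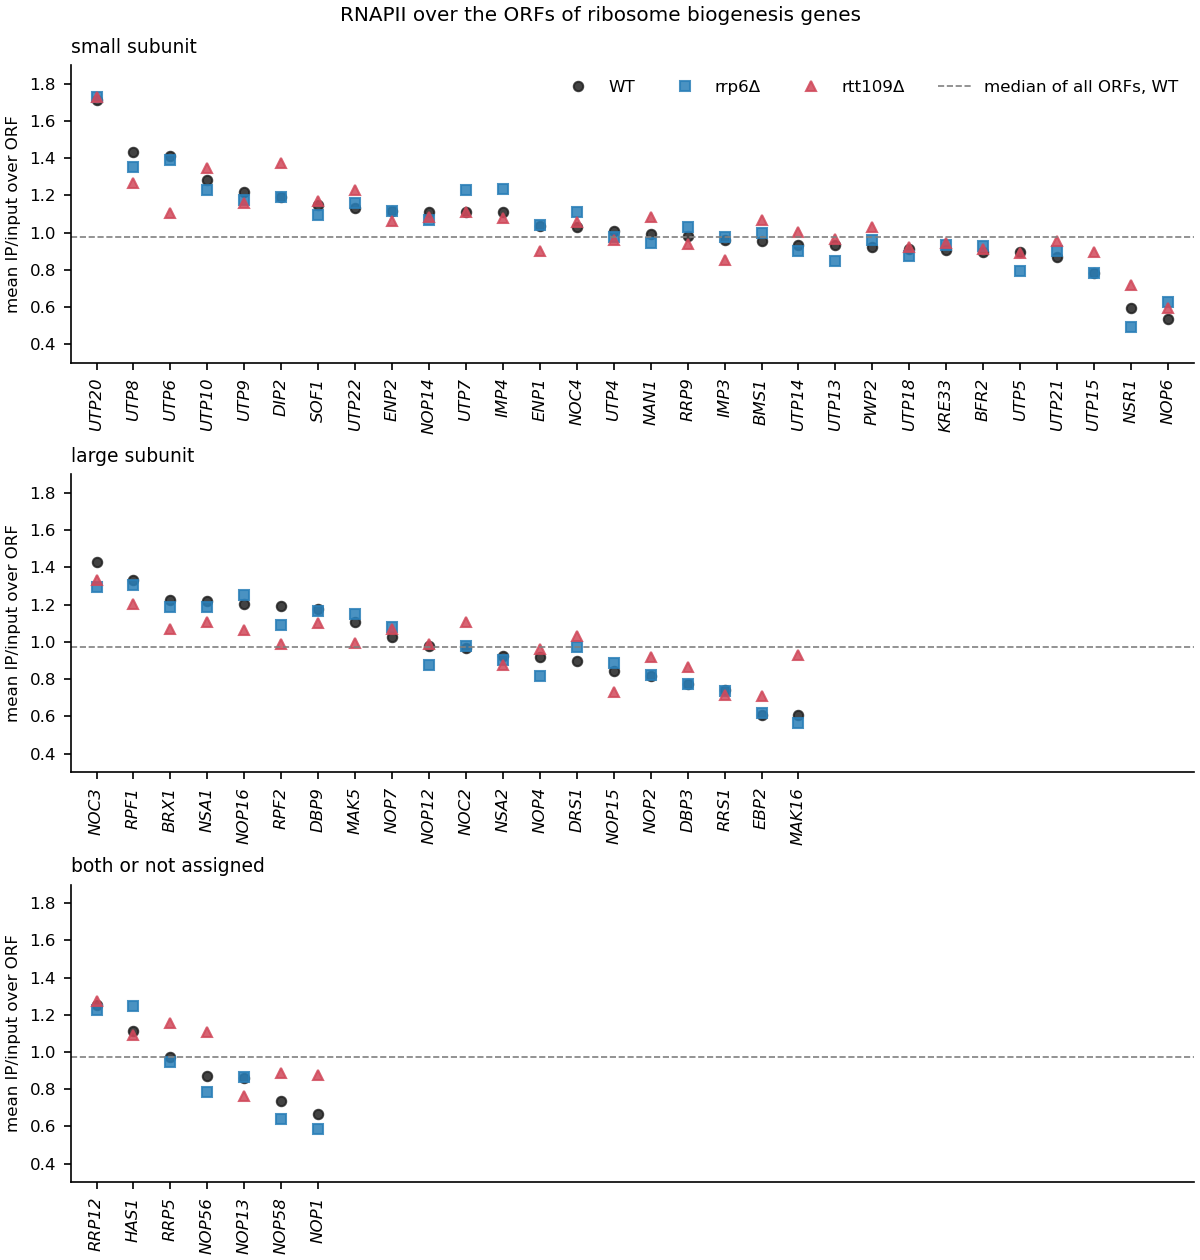
Mean IP/input ratio over the ORF of each of the 57 genes in WT (black circles), *rrp6Δ* (blue squares) and *rtt109Δ* (red triangles), in 3 panels by subunit and ordered by the WT value; the dashed line is the WT median of all ORFs, 0.974. The WT values run from 1.71 for UTP20 to 0.534 for NOP6, and the widest gaps between red and black are at MAK16 (0.927 against 0.605) and at UTP6 (1.105 against 1.41).

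The comparison of *rtt109Δ* with WT asks whether RNAPII over these genes differs when H3 lysine 56 is not acetylated. Over the ORF, ribosome biogenesis genes were on balance slightly higher in *rtt109Δ*, while the genome as a whole was slightly lower. For the 57 genes the log2 ratio of *rtt109Δ* to WT had a median of 0.02, and for all ORFs of -0.05, and 32 of the 57 (56.1%) lay above 0 against 43.3% of all ORFs. With the limit of 1.3-fold, none of the 57 was lower and 2 were higher, NOP1 and MAK16. Among all ORFs 9.53% were lower and 8.74% higher. Here and below, all ORFs were not matched to the list for length. The median number of windows averaged per ORF was 34 in the list and 24 in all ORFs. How far that bears on the counts past the limit was not tested. The sign of the median depended on processing and on the genes taken. With the 10th percentile of each track subtracted as background it was -0.17, beside -0.37 for all ORFs. Over the 30 genes at or above the median WT level of all ORFs it was -0.06, beside -0.18 for all ORFs. Taking genes by a high WT value, the denominator of the ratio, favours falls by construction.

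The genes with the largest differences upward included NOP1, NOP56 and NOP58, which encode 3 of the core proteins of the box C/D snoRNPs, the particles that methylate ribosomal RNA and include U3. NOP1, the methyltransferase fibrillarin (chromosome IV, 427364 to 428347), stood at 0.669 in WT, at 0.584 in *rrp6Δ* and at 0.876 in *rtt109Δ*. NOP56 (chromosome XII, 546097 to 547611) had 0.870 in WT, 0.787 in *rrp6Δ* and 1.11 in *rtt109Δ*, and its partner NOP58 (chromosome XV, 896825 to 898360) had 0.738 in WT, 0.638 in *rrp6Δ* and 0.887 in *rtt109Δ*. All 3 were thus highest in *rtt109Δ* and lowest in *rrp6Δ*. Their log2 ratios of *rtt109Δ* to WT were 0.39 for NOP1, 0.35 for NOP56 and 0.26 for NOP58. Those of *rrp6Δ* to WT were -0.20 for NOP1, -0.14 for NOP56 and -0.21 for NOP58. NOP1 lay just above the 1.3-fold limit and NOP56 just below it. SNU13, which encodes the remaining core protein and is not among the 57, did not share this order, with 1.26 in WT against 1.21 in *rrp6Δ* and 1.23 in *rtt109Δ* and log2 ratios to WT of -0.05 and -0.04.

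RRP9, the protein specific to U3, differed in pattern from NOP1, NOP56 and NOP58. It had 0.985 in WT, 1.03 in *rrp6Δ* and 0.937 in *rtt109Δ*, with log2 ratios to WT of 0.07 in *rrp6Δ* and -0.07 in *rtt109Δ*. NSR1 (0.597, 0.493 and 0.719 in WT, *rrp6Δ* and *rtt109Δ*) had the same order of tracks as NOP1, NOP56 and NOP58, with a log2 ratio of 0.27 in *rtt109Δ* and -0.28 in *rrp6Δ*. Like NOP1 and NOP58, it was low in WT, at percentile 6.47 of all ORFs, with NOP1 at 12.0 and NOP58 at 18.2.

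MAK16 (chromosome I, 100225 to 101145) had the largest log2 ratio in *rtt109Δ*, 0.62, and was higher in each of 3 equal parts of its ORF. It is the only one of the 57 on chromosome I, where the median log2 ratio of all 94 measured ORFs was 0.30 and 40 of them passed 1.3-fold upward. How far MAK16 shares in that chromosome's values was not tested. Without it, NOP1 was the only gene of the list past the limit.

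The largest differences downward in *rtt109Δ* stayed within the limit. UTP6, a subunit of UtpB, had 1.41 in WT, 1.39 in *rrp6Δ* and 1.105 in *rtt109Δ*, a log2 ratio of -0.36 that makes it the lower gene closest to 1.3-fold. RPF2, which with Rrs1 brings the 5S RNA particle into the large subunit, had 1.20 in WT, 1.09 in *rrp6Δ* and 0.987 in *rtt109Δ*, a log2 ratio of -0.28. NOP15, an RNA-binding protein of large-subunit precursors, had 0.843 in WT, 0.887 in *rrp6Δ* and 0.731 in *rtt109Δ*, a log2 ratio of -0.21. Unlike UTP6 and RPF2, NOP15 started below the median ORF.

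ENP1, which stays with small-subunit precursors into the cytoplasm, had 1.04 in WT, 1.04 in *rrp6Δ* and 0.904 in *rtt109Δ*, a log2 ratio of -0.20. BRX1, a large-subunit factor of the Brix family to which Rpf2 also belongs, had 1.22 in WT, 1.19 in *rrp6Δ* and 1.07 in *rtt109Δ*, a log2 ratio of -0.19. In RPF2, NOP15, ENP1 and BRX1 each of the 3 parts of the ORF was lower, whereas the middle part of UTP6 was not.

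**Figure D2:**
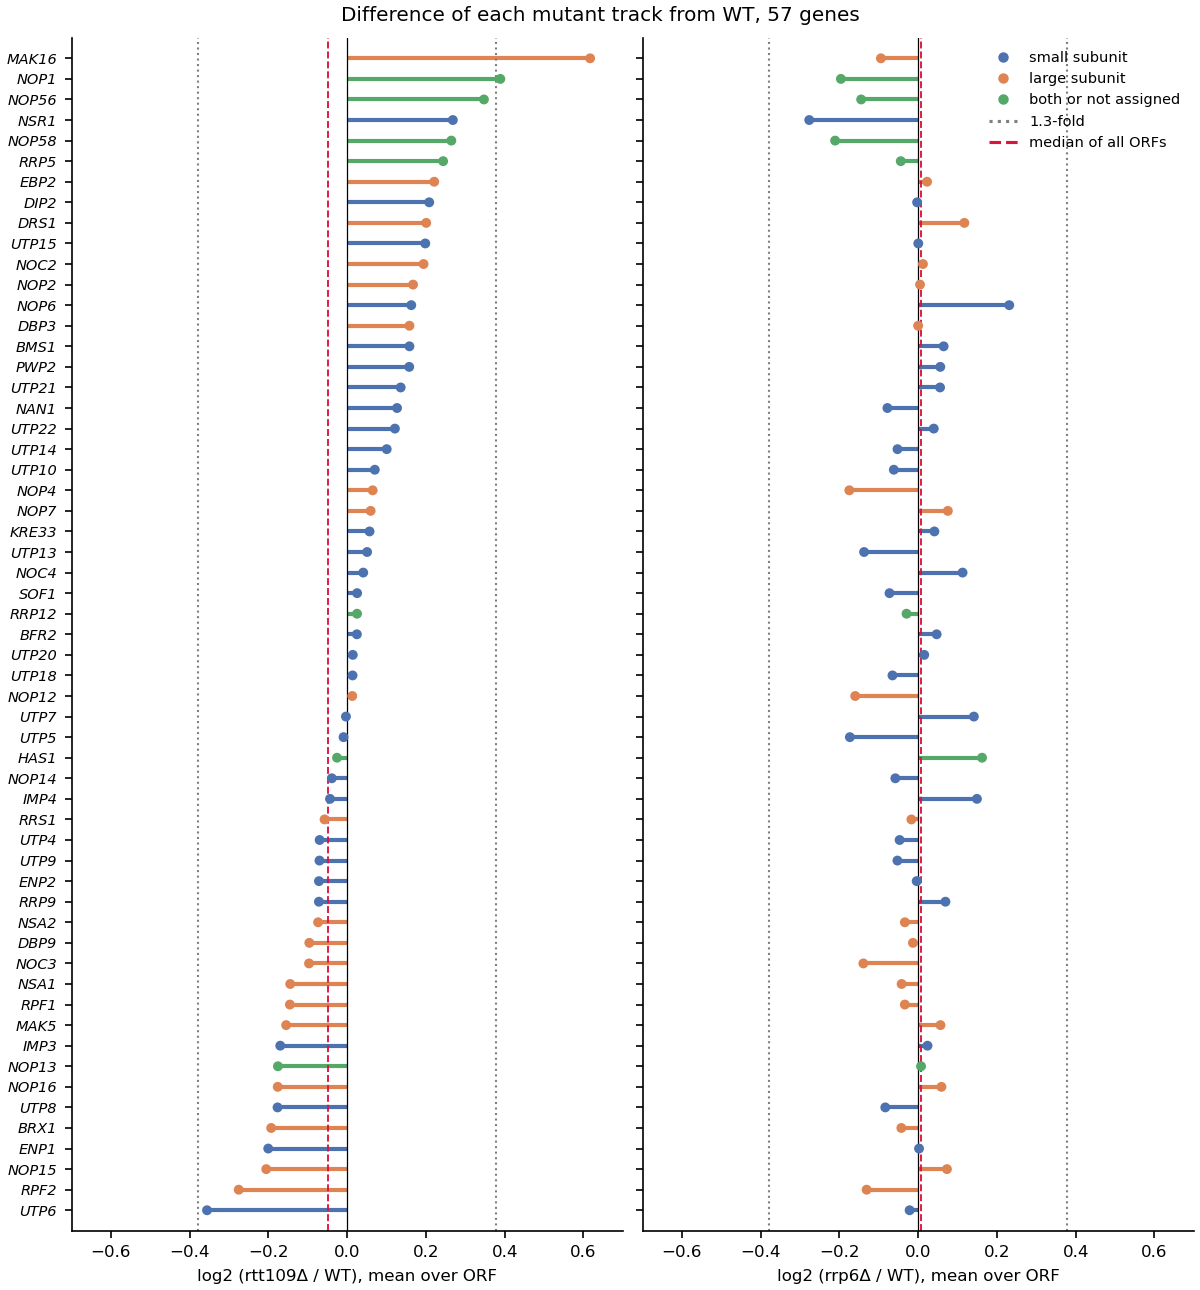
Log2 ratio of *rtt109Δ* to WT (left) and of *rrp6Δ* to WT (right) of the mean over the ORF for the 57 genes, ordered by the left panel and coloured by subunit; dotted lines mark 1.3-fold and the dashed red line the median of all ORFs. The left panel runs from -0.36 for UTP6 to 0.62 for MAK16, and in the right panel every gene stays between -0.28 and 0.23.

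In *rrp6Δ* the comparison asks whether loss of the exosome nuclease goes with a different RNAPII level. The ORFs of ribosome biogenesis genes differed little from WT. Log2 ratios of *rrp6Δ* to WT had a median of -0.01, against 0.01 for all ORFs, 25 of the 57 (43.9%) lay above 0 against 52.6% of all ORFs, and none passed 1.3-fold in either direction. Among all ORFs, 1.82% were lower and 0.709% higher. With the 10th percentile subtracted the median was 0.07 and 2 genes passed in each direction, for which the share of all ORFs is not given here.

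The largest differences downward in *rrp6Δ* were those of NSR1, NOP58 and NOP1 given above, followed by a pair of genes at -0.17. NOP4, a large-subunit factor with RNA recognition motifs, had 0.919 in WT, 0.814 in *rrp6Δ* and 0.961 in *rtt109Δ*. UTP5, a subunit of UtpA, had 0.895 in WT, 0.793 in *rrp6Δ* and 0.889 in *rtt109Δ*.

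NOP6 had the largest log2 ratio upward in *rrp6Δ*, 0.23. HAS1, an RNA helicase that acts on both subunits, had 1.11 in WT, 1.25 in *rrp6Δ* and 1.09 in *rtt109Δ*, a log2 ratio of 0.16 in *rrp6Δ* that was -0.04 over the first 500 bp. IMP4, a partner of Mpp10 in joining U3 to the precursor, had 1.11 in WT, 1.23 in *rrp6Δ* and 1.08 in *rtt109Δ*, a log2 ratio of 0.15. These 2 genes were close to WT in *rtt109Δ*.

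UTP7, a small-subunit factor, had 1.11 in WT, 1.23 in *rrp6Δ* and 1.11 in *rtt109Δ*, a log2 ratio of 0.14 in *rrp6Δ*. DRS1, a large-subunit helicase, had 0.899 in WT, 0.975 in *rrp6Δ* and 1.03 in *rtt109Δ*, a log2 ratio of 0.12 in *rrp6Δ* and 0.20 in *rtt109Δ*. DRS1 was thus above WT in both mutants.

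Set directly against each other, without the WT track, the mutants differed by more than 1.3-fold at 5 genes, and all 5 were higher in *rtt109Δ*. They were NOP1, NOP56, NOP58, NSR1 and MAK16, with log2 ratios of *rtt109Δ* to *rrp6Δ* of 0.59, 0.49, 0.48, 0.55 and 0.71 in that order. None of the 57 was lower by that limit. Over all ORFs 11.4% were lower in *rtt109Δ* than in *rrp6Δ* and 11.3% higher, and the median was -0.06 against 0.02 for the 57 genes.

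By subunit, the 30 small-subunit genes had a median WT ratio of 1.00 and the 20 large-subunit genes 0.972. In *rtt109Δ* the median log2 ratio was 0.02 for the small-subunit genes and -0.07 for the large-subunit genes, a difference of 0.09. The interquartile range was -0.06 to 0.13 for the small-subunit genes and -0.15 to 0.16 for the large-subunit genes, so the classes overlapped over nearly their whole spread. In *rrp6Δ* the medians were -0.0011 and -0.015. The small-subunit genes were also longer, with a median of 2028 bp against 1386 bp.

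Within the small-subunit class, the 7 UtpA genes ranged in *rtt109Δ* from -0.18 for UTP8 to 0.20 for UTP15, with a median of -0.01. Their WT levels ran from 0.782 for UTP15 to 1.43 for UTP8. The lowest of them in WT thus had the highest log2 ratio and the highest in WT the lowest. WT is the denominator of that ratio, which favours this order by construction. In *rrp6Δ*, 6 of the 7 were below WT and UTP15 was equal to it, with 0.782 in both tracks.

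Of the 6 UtpB genes, 5 were above WT in *rtt109Δ* and UTP6 was below it, with a median of 0.09. DIP2, the UtpB subunit also called Utp12, was the highest of them with 1.19 in WT, 1.19 in *rrp6Δ* and 1.38 in *rtt109Δ*, a log2 ratio of 0.21. Subunits of the same complex therefore did not share 1 direction in these tracks. The single UtpC gene of the list, UTP22, had 1.13 in WT, 1.16 in *rrp6Δ* and 1.23 in *rtt109Δ*.

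IMP3 and IMP4, partners of U3, were both below WT in *rtt109Δ*, with log2 ratios of -0.17 and -0.04, and above it in *rrp6Δ*, with 0.02 and 0.15. The other 13 small-subunit genes had a median log2 ratio of 0.03 in *rtt109Δ* and 0.02 in *rrp6Δ*. RRP5, which is needed for both subunits, had 0.975 in WT, 0.946 in *rrp6Δ* and 1.16 in *rtt109Δ*, a log2 ratio of 0.24, close to that of NOP58.

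The difference in *rtt109Δ* went with the level of the gene. To avoid dividing by the same WT values that set the order, the 57 genes were ordered by their level in *rrp6Δ* and cut into 3 sets of 19, although all tracks share the input. In the lowest set the *rtt109Δ* log2 ratio had a median of 0.16, in the middle set of 0.06 and in the highest set of -0.07, with 14, 13 and 5 genes above 0. All ORFs, cut at the same levels but with no limit at either end, had medians of 0.14, -0.07 and -0.21. Low genes were thus higher in *rtt109Δ* within this list and across the genome alike. The *rtt109Δ* track was also the narrowest around the same median window, with an SD of 0.661 against 0.897 in WT. A narrower track raises low values and lowers high ones by construction, and ordering by *rrp6Δ* does not remove this. Whether the pattern goes beyond that was not tested. In each set the list's median lay above that of all ORFs, whose outer ranges reach further than those of the list. Only the middle range was the same for both, and a comparison matched for level in the outer ranges was not tested. Over the 57 genes the log2 ratio and the *rrp6Δ* level had a Spearman's rho of -0.56 and a Pearson's r of -0.60, and over all ORFs a rho of -0.60, given as descriptions since genes are not replicates.

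Upstream of the start codon, 17.5% of the 57 genes were lower past the limit in *rtt109Δ*, near the 16.8% of all start codons. None was higher with the tracks as deposited, but some were after rescaling, as given below. In the 300 bp before the start codon, the median ratio of the 57 genes in WT was 1.44, beside 1.41 for all start codons, above their level over the ORF. NOP56 was the highest, with 4.40 in WT, 4.71 in *rrp6Δ* and 3.05 in *rtt109Δ*. MAK16 followed with 3.62 in WT, 3.84 in *rrp6Δ* and 2.98 in *rtt109Δ*. NOP16, a large-subunit factor, had 3.57 in WT, 2.96 in *rrp6Δ* and 2.36 in *rtt109Δ*. In all 3 the *rtt109Δ* track was the lowest.

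The lowest upstream levels were those of PWP2, a UtpB subunit, with 0.795 in WT, 0.718 in *rrp6Δ* and 0.847 in *rtt109Δ*. NSA2, a large-subunit factor, had 0.879 in WT, 0.836 in *rrp6Δ* and 0.889 in *rtt109Δ*. NAN1, the UtpA subunit also called Utp17, had 0.934 in WT, 0.835 in *rrp6Δ* and 1.04 in *rtt109Δ*. Here the *rtt109Δ* track was the highest of the 3.

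In *rtt109Δ*, 10 of the 57 genes were lower by more than 1.3-fold upstream and none was higher. Among all start codons, 16.8% were lower and 8.6% higher. The 10 were NOP16, MAK5, HAS1, NOP56, UTP7, NOP4, UTP10, NOP7, ENP2 and BFR2. BFR2, a small-subunit factor, lay just past the limit at -0.38 and RPF2 just short of it at -0.37. The median log2 ratio was -0.07 over the 57 genes and -0.06 over all start codons, and 38.6% of the 57 lay above 0 against 43.1%. Of the 10, 4 have another ORF within those 300 bp, which leaves 6 among the 41 genes without one. With each track divided by its mean over windows, 4 of the 57 were lower and 5 higher, and the median was 0.02, beside 0.04 over all start codons. Shares of all start codons past the limit are not given here for that subset or that scaling.

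NOP16 had the largest upstream difference, a log2 ratio of -0.59 in *rtt109Δ* and -0.27 in *rrp6Δ*. MAK5, an RNA helicase for the large subunit, had 1.63 in WT, 1.43 in *rrp6Δ* and 1.09 in *rtt109Δ*, also -0.59. HAS1 had 2.01 in WT, 1.49 in *rrp6Δ* and 1.36 in *rtt109Δ*, with log2 ratios of -0.57 in *rtt109Δ* and -0.43 in *rrp6Δ*. HAS1 was lower upstream in both mutants, whereas its ORF was close to WT in *rtt109Δ* and above it in *rrp6Δ*.

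UTP7 had 2.07 in WT, 1.74 in *rrp6Δ* and 1.53 in *rtt109Δ* upstream, a log2 ratio of -0.43. For NOP56 the log2 ratio was -0.53, and it rested on a single sharp peak, highest 297 bp before the start codon in WT, at 9.76, and in *rrp6Δ*, at 11.0. In *rtt109Δ* that window was at 4.70 and the highest one, 247 bp before the start codon, at 4.88. With the median over its windows the NOP56 value was 0.11, and over the 150 bp next to the start codon it was 0.37. The direction at NOP56 therefore depended on whether that peak was counted.

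In *rrp6Δ*, 3 of the 57 genes were lower by more than 1.3-fold upstream and none was higher, among 5.16% lower and 0.814% higher of all start codons. These were UTP13, a UtpB subunit, with 1.72 in WT, 1.27 in *rrp6Δ* and 1.53 in *rtt109Δ*, together with HAS1 and ENP2. ENP2, a small-subunit factor, had 3.49 in WT against 2.60 in *rrp6Δ* and 2.67 in *rtt109Δ*, lower in both mutants. The median log2 ratio was -0.07, beside -0.08 for all start codons. With the WT distribution imposed by rank, none of the 3 passed, and the median was -0.0014.

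By subunit, the upstream median in *rtt109Δ* was -0.04 for the small-subunit genes and -0.19 for the large-subunit genes, and their WT levels were 1.41 and 1.58. The interquartile ranges, -0.23 to 0.11 and -0.31 to -0.03, overlapped. About as many of the 57 genes as of all ORFs faced a neighbour transcribed away from them, 49.1% and 51.8%, and 28.1% and 28.9% had another ORF in the 300 bp. The 28 genes with such a divergent neighbour had an upstream median of -0.01 in *rtt109Δ* and the 29 in tandem -0.08. All divergent and tandem start codons were at -0.01 and -0.11.

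**Figure D3:**
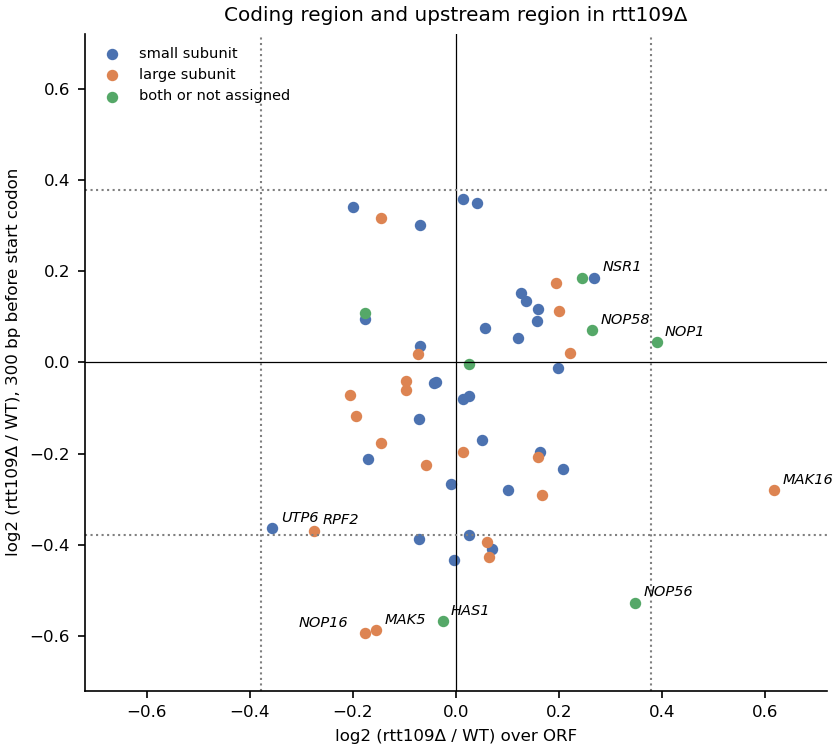
Log2 ratio of *rtt109Δ* to WT over the ORF (horizontal axis) against that in the 300 bp before the start codon (vertical axis), 1 point per gene, coloured by subunit, with dotted lines at 1.3-fold. Below the lower dotted line lie 10 genes (17.5%, beside 16.8% of all start codons), and none lies above the upper one (8.6% of all start codons). Only NOP1 and MAK16 lie beyond the right line (3.51%, beside 8.74% of all ORFs).

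Taking both regions of a gene, 17 of the 57 were higher over the ORF and lower upstream in *rtt109Δ* (29.8%), against 16.2% of all ORFs. In *rrp6Δ* these shares were 31.6% and 32.4%. The ratio of upstream to ORF level was lower in *rtt109Δ* than in WT in 42 of the 57 genes (73.7%), against 53.6% of all ORFs. Its median log2 difference was -0.08 for the 57 and -0.03 for all ORFs. In *rrp6Δ* it was lower in 41 genes (71.9%), against 66.1% of all ORFs, with medians of -0.06 and -0.09. The 2 counts share the WT track.

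Along the ORF, the 57 genes were higher in *rtt109Δ* in the first and the middle of 3 equal parts and lower in the last. From the first part to the last, median log2 ratios of *rtt109Δ* to WT were 0.14, 0.11 and -0.08, with 38, 36 and 20 genes above 0. The shares above 0 were 66.7%, 63.2% and 35.1% of the 57 genes, and 54.97%, 48.3% and 35.7% of all ORFs, so that in the last part they were nearly equal. Median log2 ratios of all ORFs were 0.03, -0.02 and -0.12, also declining toward the end of the gene. In WT the 57 genes had medians of 0.832, 0.931 and 1.18 in the 3 parts, and all ORFs 0.886, 0.901 and 1.06. The list thus started lower and ended higher in WT than all ORFs, which were not matched to it for length.

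In *rrp6Δ* the order was the opposite, with median log2 ratios of -0.08, -0.08 and 0.10 and with 15, 15 and 42 genes above 0 (26.3%, 26.3% and 73.7%). All ORFs had medians of -0.03, 0.01 and 0.04, with 42.4%, 51.2% and 57.8% above 0. The 3 parts had the same sign in *rtt109Δ* in 21 of the 57 genes (36.8%), 13 up and 8 down, against 54.0% of all ORFs, and NOP1, NOP56, NOP58, NSR1, MAK16 and RRP5 were among the 13. In *rrp6Δ* this held for 11 genes (19.3%) against 35.6%, so that the mean over the ORF often combined parts of opposite sign. The shares were not matched for length, with a median of 1722 bp in the list and 1206 bp in all ORFs. Each part of a short ORF holds few windows, and these overlap.

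Around the start codon, the 46 genes of 1000 bp or more had their highest median before it and their lowest inside the gene. In WT the peak was 1.58 at -100 bp and the lowest point 0.658 at 350 bp. In *rrp6Δ* these were 1.45 at -50 bp and 0.580 at 350 bp, and in *rtt109Δ* 1.501 at -50 bp and 0.781 at 350 bp. The *rtt109Δ* profile therefore had the shallowest drop and the *rrp6Δ* profile the lowest floor. Over all 3468 ORFs of that length the lowest points were 0.735 in WT, 0.721 in *rrp6Δ* and 0.805 in *rtt109Δ*. They lay at 350 bp in WT and at 500 bp in both mutants. These values are closer together than those of the list. A median over 46 genes is less steady than one over 3468, however, and the difference in spread was not tested.

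**Figure D4:**
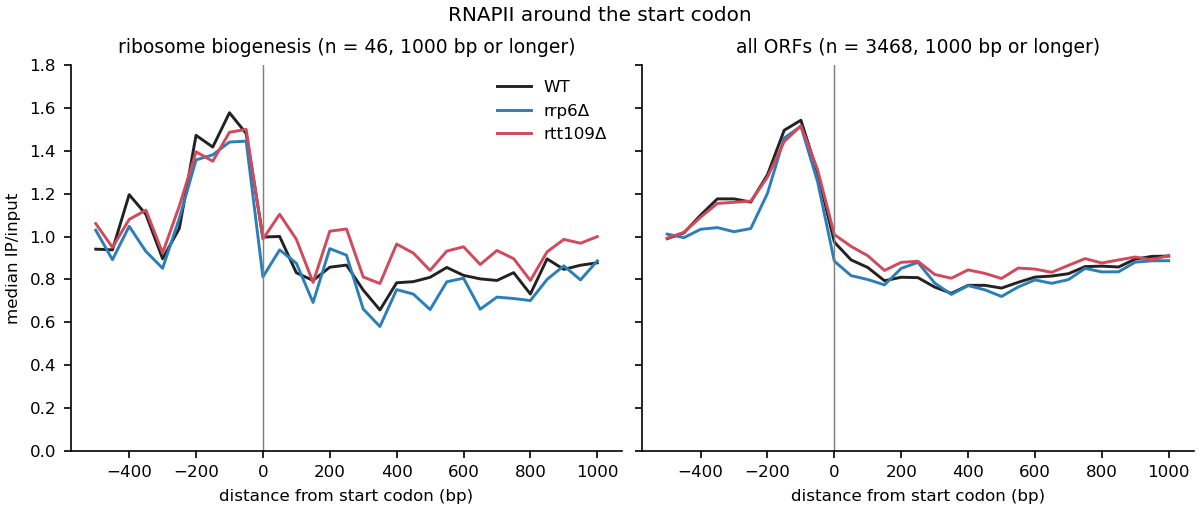
Median IP/input ratio by distance from the start codon, from -500 to 1000 bp, for the 46 ribosome biogenesis genes of 1000 bp or more (left) and all 3468 such ORFs (right) in WT (black), *rrp6Δ* (blue) and *rtt109Δ* (red). In the left panel the red line runs above the others from 200 bp on inside the gene, with its lowest value of 0.781 against 0.658 in WT and 0.580 in *rrp6Δ*.

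The 300 bp after the stop codon, a region added after the data had been seen, held the highest ratios. The 57 genes had medians of 2.37 (WT), 2.40 (*rrp6Δ*) and 1.96 (*rtt109Δ*), and all ORFs had 1.94, 1.89 and 1.61. The *rtt109Δ* log2 ratio there had a median of -0.35, beside -0.26 for all ORFs. Above 0 lay 6 of the 57 genes, and 1446 of the 5772 ORFs with values there. Most ORFs of the genome were thus lower there too. In the 25 genes with no other ORF in that stretch the median was -0.23, and in all such ORFs -0.22.

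**Figure D5:**
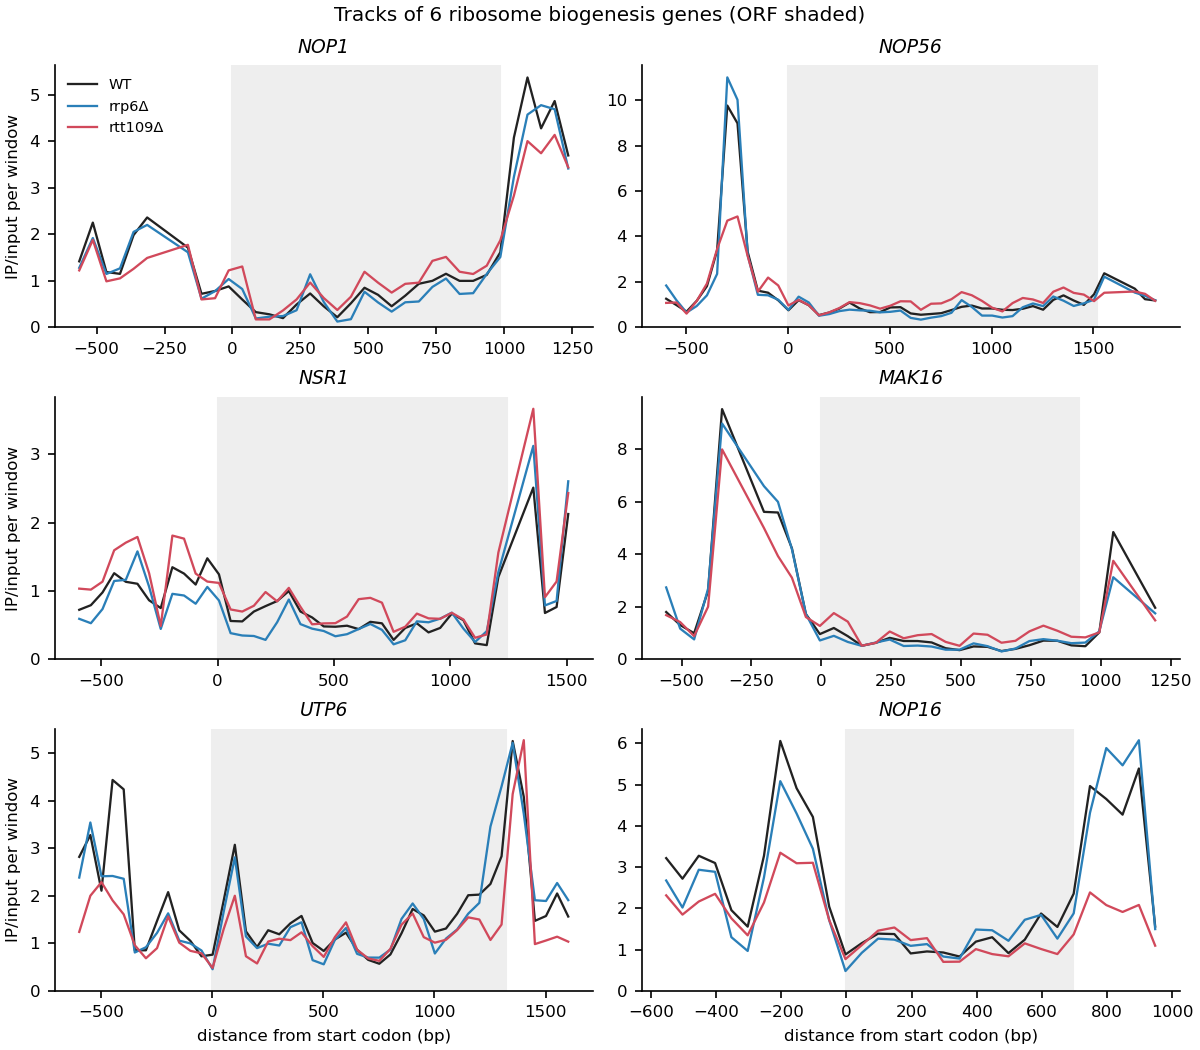
IP/input ratio per window against distance from the start codon for NOP1, NOP56, NSR1, MAK16, UTP6 and NOP16 in WT (black), *rrp6Δ* (blue) and *rtt109Δ* (red), with the ORF shaded; the vertical scale differs between panels. The peak before NOP56 reaches 9.76 in WT and 4.88 in *rtt109Δ*, while inside NOP1, NOP56 and MAK16 the red line lies mostly above the black one.

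Other genes of the pathway, from a list of 103 written for their roles, were read in the same way, and 100 of them had values. Over the ORF in *rtt109Δ*, 2 of the 100 were lower by more than 1.3-fold and 5 higher, with a median log2 ratio of -0.03. Both counts are smaller shares than the 9.53% lower and 8.74% higher among all ORFs. The 41 genes listed as other small-subunit factors had a median of -0.08 and the 44 other large-subunit factors 0.02. That order was opposite to the order in the 57 genes, but the classes were not drawn alike. The 41 include snoRNP core proteins that are not particular to the small subunit, such as CBF5, NOP10 and SNU13. In the 57 genes the core proteins NOP1, NOP56 and NOP58 were kept out of both classes. The 8 RNA polymerase I genes were at 0.06 and the 7 regulators at 0.06. In *rrp6Δ* the median was -0.04, 1 gene was lower, NOP10 of the H/ACA snoRNPs with -0.46, and none was higher. The shares of all ORFs were 1.82% lower and 0.709% higher.

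The largest differences downward among these were those of IPI1, of the Rix1 complex of the large subunit, with 1.09 in WT, 0.958 in *rrp6Δ* and 0.752 in *rtt109Δ*, NOP19, a small-subunit factor, with 1.08, 1.09 and 0.796, and FAL1, a small-subunit helicase, with 1.34, 1.28 and 1.03, in the same order of tracks. The largest differences upward were those of NOG1, a large-subunit GTPase, with 0.656, 0.600 and 0.993, MPP10, the partner of Imp3 and Imp4, with 0.873, 0.867 and 1.19, and CBF5, the pseudouridine synthase of the H/ACA snoRNPs, with 0.697, 0.663 and 0.945. Of these 6 genes all but FAL1 passed 1.3-fold in *rtt109Δ*, whose log2 ratio was -0.37. MPP10 was thus above WT in *rtt109Δ* while IMP3 and IMP4 were below it.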

How the data were processed

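The deposited values are ratios of IP to input per window, which the authors computed with 1 track per genotype, the replicates being combined. The submitters' processing notes name FastQC, Bowtie2, SAMtools, deepTools, bedtools and the sacCer3 build, without roles, and how replicates were combined is not given in the sources used here. Micrococcal nuclease digestion depends on chromatin and base composition, which can enter such ratios. ORF positions came from the RefSeq R64 table and strands from systematic names. Windows (228888 per track, 15 chromosomes) were averaged by their centres over each ORF and over 300 bp before each start codon (5776 with values), without a pseudocount, and log2 ratios were taken. The 1.3-fold limit is that of the study. With 1 track per genotype no test was made.

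Genes named singly were the 5 largest differences downward and upward per mutant over the ORF, the 3 highest and lowest in WT over the ORF and upstream, NOP1, NOP56, NOP58 and RRP9, those past 1.3-fold upstream (at most 5 per direction), those nearest the limit, and the 3 largest changes per direction among other pathway genes. RRP5, DIP2, UTP15, UTP22, IMP3, SNU13, NOP10 and the remaining upstream genes were named after their values had been seen. The members, classes and lists were chosen with earlier results of these data known. Promoter motifs had been planned, but sequences were not used here. Alternatives were other scalings, summaries, regions, subsets and limits. Scripts were tested on simulated data. Tables and figures were made with matplotlib 3.10.9, scipy 1.17.1, pandas 2.3.3, numpy 2.4.6 and Python 3.11.15.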

Additional observations from a re-analysis of the deposited data

How the results depend on the processing

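No paired analysis was possible because each deposited track already combines its replicates, so leaving a replicate out was not an option either. The depth is unknown. Motif alternatives were not run. Counts of genes past a limit are given below without the shares of all ORFs or start codons. They therefore do not set the list apart from the genome. Medians, class differences and counts of genes under the alternatives were compared with the main values. A count was called the same if equal to the main count or within a fixed fold of it. A median or class difference was called the same if inside an interval drawn from the spread of the genes, which are not replicates. Of the values that answer a comparison, 108 were called the same, 41 moved and 7 reversed in sign. The cause was not tested except where a construction is named.

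Over the ORF in *rtt109Δ*, the median log2 ratio was 0.12 with tracks divided by their mean (which moved the median of all ORFs from -0.05 to 0.04), 0.072 divided by the median ORF, 0.079 with the WT distribution by rank, 0.13 over the first 500 bp, -0.17 with the 10th percentile subtracted and -0.057 for ORFs at or above the median WT level. The counts of lower genes were 16 with the background subtracted, which lowered the median of all ORFs as well, and 1 over the first 500 bp. Those of higher genes were 5 with the median over windows, with the background subtracted and over the first 500 bp, 1 without chromosome I and at 1.5-fold, and 0 with a pseudocount of 0.5 and at or above the median level. The subtracted 10th percentile was 0.539 in WT and 0.600 in *rtt109Δ*, which favours falls by construction. Taking ORFs by a high WT level does so too, since WT is the denominator.

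Over the ORF in *rrp6Δ*, background subtraction gave a median of 0.069 with 2 genes lower and 2 higher, and the first 500 bp 1 lower, with HAS1 at -0.041.

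Upstream in *rtt109Δ*, the median was 0.022 divided by the mean and -0.23 with the background subtracted. The lower genes numbered 4 divided by the mean or with the pseudocount, 5 divided by the median ORF, by rank or over 150 bp, 22 with the background subtracted, 6 without genes whose 300 bp hold another ORF, and 2 at 1.5-fold. The higher genes numbered 5 divided by the mean or with the background subtracted, 3 divided by the median ORF or by rank, 2 over 150 bp, and 1 over 500 bp or with the median over windows. NOP56 was at 0.11 with the median over windows and 0.37 over 150 bp.

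Upstream in *rrp6Δ*, the median was -0.0014 by rank. The lower genes numbered 6 with the median over windows, 8 with the background subtracted, and 0 by rank, with the pseudocount or at 1.5-fold, and 1 gene was higher with the median over windows, with the background subtracted or over 150 bp. The difference between small- and large-subunit genes over the ORF in *rrp6Δ*, 0.01, was -0.0037 by rank, -0.0032 with the median over windows and -0.025 with the background subtracted.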
